A study of Mus musculus with 13 samples.

Results

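The miR-200 family was examined in small RNA-seq libraries of thymic iNKT cells. Its members were chosen by name as the 5 hairpins mmu-mir-200a, mmu-mir-200b, mmu-mir-429, mmu-mir-200c and mmu-mir-141 of 1127 hairpins listed, and the 9 mature miRNAs listed for them of 1297. No mature count for the 5p arm of mir-429 was analysed here. The libraries came from 6 WT C57BL/6 mice and 7 Tet2-/-Tet3flx/flxcd4cre mice (*Tet2/3* DKO), 1 library per mouse, aged 21 to 25 days and of both sexes. As innate-like T lymphocytes, iNKT cells recognize lipid antigens through a semi-invariant receptor. They were depleted of CD24+ thymocytes and then sorted by lipid-loaded tetramer and TCRβ. *Tet2* and *Tet3* encode enzymes that oxidize 5-methylcytosine. The *Tet2* deletion is germline, and *Tet3* is removed by a Cre that the CD4 promoter drives, which acts in T cells from the double positive stage on. The comparison of genotypes asked whether the members, their arms and their 2 genomic clusters differed together.

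MicroRNAs are cut from a hairpin first by DROSHA in the nucleus and then by DICER in the cytoplasm, which leaves a 5p and a 3p strand, one of which is usually retained by Argonaute. The seed near the 5′ end of the retained strand pairs with target mRNAs. The miR-200 family is known for its high level in epithelial cells, where it represses *Zeb1* and *Zeb2*, transcription factors of the epithelial-mesenchymal transition. ZEB factors in turn repress the family's genes.

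The members lie in 2 clusters. In GRCm38, mir-200c and mir-141 lie within chr6:124717914-124718390, which spans 477 bases on the minus strand. Both lie in an intron of the noncoding gene Gm15884, and mir-141 overlaps an exon of the unclassified transcript Gm29008. The nearest coding genes are *Phb2*, 964 bases from mir-141, and *Ptpn6*, 2317 bases from mir-200c. The other 3 hairpins lie within chr4:156053905-156055750, which spans 1846 bases on the minus strand in an intron of *Ttll10*. Of these, mir-429 also overlaps an exon of the noncoding transcript Gm13648.

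The mature sequences of RefSeq (GRCm38.p6, 9 of 9 members matched) show that the clusters and the seeds divide the family differently. The 5 retained 3p arms and the one 5p arm with enough counts for a test are shown 5′ to 3′, with the seed, bases 2 to 8, in capitals.
miR-200c-3p: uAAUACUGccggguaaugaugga
miR-200b-3p: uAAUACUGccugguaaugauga
miR-429-3p: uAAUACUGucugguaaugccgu
miR-141-3p: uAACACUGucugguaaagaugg
miR-200a-3p: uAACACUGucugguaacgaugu
miR-200b-5p: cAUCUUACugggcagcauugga
The seed AAUACUG is shared by miR-200c-3p, miR-200b-3p and miR-429-3p, and AACACUG by miR-141-3p and miR-200a-3p. Each seed thus occurs in both clusters. Counting from 1 at the 5′ end, miR-200b-3p and miR-200a-3p differ within the seed at U4C. Outside the seed, miR-200c-3p and miR-200b-3p differ at G11U and G22A, and miR-141-3p and miR-200a-3p at A17C and G22U. These pairs are close enough that reads with sequencing errors or trimmed ends could be assigned to either, and how such reads were counted is not given in the sources used here. Among 1078 listed mature miRNAs with a RefSeq sequence, 0 outside the family carried either seed.

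A hairpin of each cluster is shown with its 5p and 3p arms in capitals, because hairpin and arm counts parted in mir-200c and not measurably in mir-200b.
mir-200c: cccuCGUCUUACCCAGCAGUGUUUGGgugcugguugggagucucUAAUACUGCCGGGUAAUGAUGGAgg
mir-200b: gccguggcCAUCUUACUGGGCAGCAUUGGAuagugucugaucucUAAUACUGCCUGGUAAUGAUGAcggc

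Hairpin libraries held 469117 to 1110226 counts in WT and 728653 to 1910526 in *Tet2/3* DKO, and mature libraries 1110852 to 2582057 and 1837631 to 4361963. WT libraries were thus shallower, and DKO 7 was the shallowest *Tet2/3* DKO library. Levels are CPM of the TMM-scaled library, that is, counts relative to the scaled library total. Changes are log2 fold changes of *Tet2/3* DKO against WT with their SE, from edgeR's quasi-likelihood test with Benjamini-Hochberg adjustment over all 350 hairpins or 401 mature miRNAs tested. A miRNA was called at an adjusted p under 0.05. Replicates are separate mice. Counting intervals are not given, and the sources used here do not say whether reads carried molecular identifiers. In sorted cells measured in bulk, fewer cells of a type and less RNA per cell cannot be told apart.

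Some mature arms of each cluster were called lower in *Tet2/3* DKO iNKT cells, whereas no member hairpin passed the test. For mir-200b the hairpin and the 3p arm had like log2 fold changes, −0.507 and −0.505, and neither passed. Of 6 member arms tested, 4 were called lower and 0 higher, against 27.4% lower and 28.2% higher of all mature miRNAs tested. The called arms were miR-200c-3p, miR-141-3p, miR-200a-3p and miR-200b-5p, which come from both clusters. Among these, miR-200b-5p passed the filter on low counts only through the WT libraries, where it was high. The counts and the median given here for the 6 arms include it. Both AACACUG arms were called, but of the AAUACUG arms only miR-200c-3p was, and miR-200b-5p carries neither of these seeds. The median log2 fold change of the 6 arms was −0.77, against −0.01 over all mature miRNAs. None of the 4 passed an absolute log2 fold change of 2 as well, a mark that 11.2% of all mature miRNAs passed. In 2 of the 6 arms the genotypes did not overlap, against 27.2% of all mature miRNAs.

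The arm of the family with most counts was miR-200c-3p, ranked 75 of all mature miRNAs by mean CPM in WT. It was at 607.6 CPM in the lowest WT mouse, 770.6 in the median and 1039 in the highest. In *Tet2/3* DKO it was at 274.2 CPM in the lowest mouse, 438.5 in the median and 516.5 in the highest. The highest *Tet2/3* DKO value stayed under the lowest WT value. The mean fell from 792.8 ± 164 CPM (SD, n = 6) to 429.03 ± 83.3 (SD, n = 7), with a log2 difference of −0.89 (SE 0.152, edgeR adjusted p = 4.11e-05).

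Its cluster partner miR-141-3p, which carries the other seed, ranked 111. It ranged from 235.7 CPM over a median of 296.1 to 352.6 in WT, and from 130.9 over 173.8 to 276.9 in *Tet2/3* DKO. In 6 of 7 *Tet2/3* DKO mice the level was below every WT mouse, and DKO 7 lay among the WT values. The mean fell from 298.8 ± 43.2 CPM (SD, n = 6) to 191.3 ± 51.7 (SD, n = 7), with a log2 fold change of −0.65 (SE 0.166, edgeR adjusted p = 0.00236). When libraries were scaled by their total alone the fold change was −0.37 and the call was lost (adjusted p = 0.115), while the median of all mature miRNAs moved to 0.24.

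In the other cluster, miR-200a-3p showed the lowest fold change among the 3p arms. It ranged from 39.5 CPM over a median of 68.8 to 88.2 in WT and from 15.7 over 24.2 to 46.0 in *Tet2/3* DKO, where 6 of 7 mice were below every WT mouse and DKO 5 was highest. Its mean fell from 66.8 ± 17.6 CPM (SD, n = 6) to 27.0 ± 9.44 (SD, n = 7), with a log2 fold change of −1.31 (SE 0.236, edgeR adjusted p = 7.05e-05).

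The other 3p arms of that cluster did not pass the test. For miR-200b-3p the level ranged from 25.4 CPM over a median of 42.9 to 60.8 in WT and from 18.0 over 28.3 to 50.6 in *Tet2/3* DKO, and the genotypes overlapped (log2 fold change −0.51, SE 0.250, edgeR adjusted p = 0.0906). It passed when WT 1, WT 2 or DKO 5 was left out, and fold changes lay between −0.72 and −0.46, with adjusted p from 0.0140 to 0.146, over all mice left out in turn. It also passed with upper-quartile scaling (−0.69, adjusted p = 0.0223), and was −0.28 with library size scaling (adjusted p = 0.349). For miR-429-3p the level ranged from 10.3 CPM over 17.9 to 29.5 in WT and from 6.73 over 13.1 to 26.4 in *Tet2/3* DKO. DKO 1 was among the highest values and the genotypes overlapped (−0.46, SE 0.324, edgeR adjusted p = 0.232). It was −0.72 without DKO 1 (adjusted p = 0.0617) and −0.23 with library size scaling (adjusted p = 0.567).

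Among the 5p arms only that of mir-200b had enough counts for the test, with 7 to 60 counts in a WT library and 6 to 19 in a *Tet2/3* DKO one. It passed the filter through its WT libraries, since too few *Tet2/3* DKO libraries reached the filter's level. DKO 2, 3 and 7, with 7, 7 and 6 counts, fell short of it. With no filter beyond 1 count the log2 fold change of miR-200b-5p was −1.76 (edgeR adjusted p = 0.000793). The level of miR-200b-5p ranged from 6.58 CPM over a median of 10.6 to 26.9 in WT, where WT 4 was highest, and from 1.53 over 3.80 to 4.86 in *Tet2/3* DKO. There was no overlap, and the mean fell from 12.4 ± 7.49 CPM (SD, n = 6) to 3.44 ± 1.23 (SD, n = 7), with a log2 fold change of −1.85 (SE 0.399, edgeR adjusted p = 0.000488). The 5p arms of mir-200a, mir-200c and mir-141 did not pass the filter on low counts. In WT libraries they had 0 to 11, 0 to 8 and 0 to 6 counts, and in *Tet2/3* DKO libraries 4 to 19, 0 to 7 and 0 to 18. With no filter beyond 1 count their edgeR adjusted p was 0.956, 0.916 and 0.391, and no difference between genotypes was detectable for them at this depth.

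**Figure D1:**
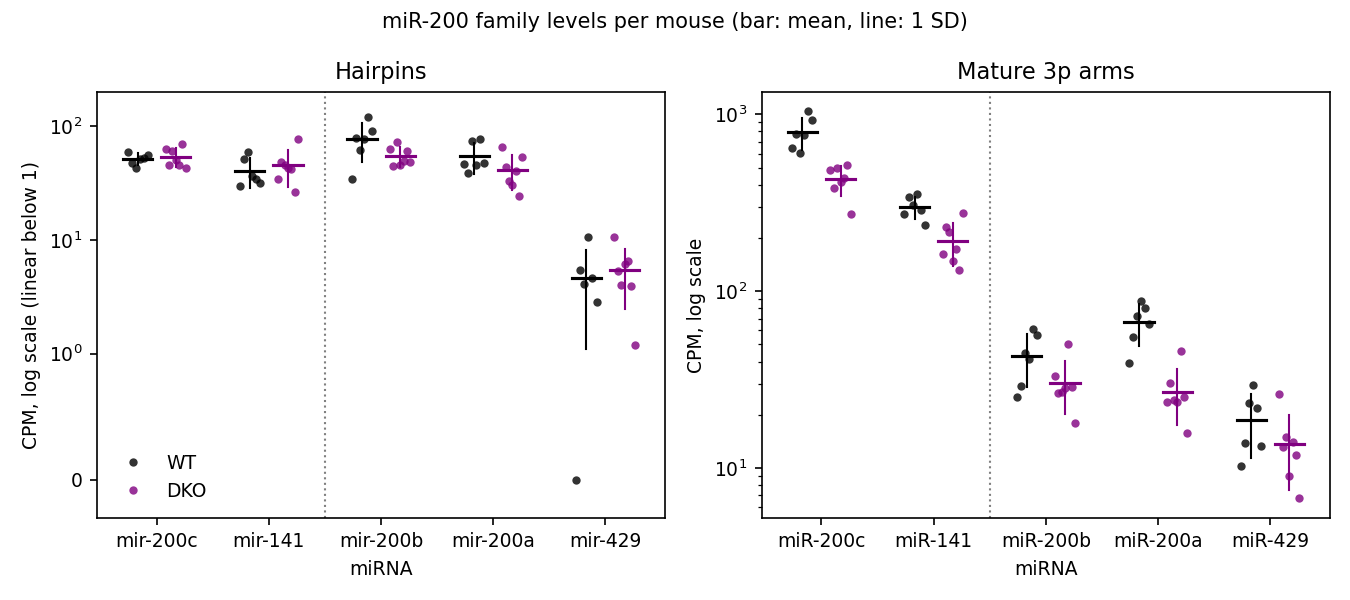
Levels of the 5 hairpins (left) and the 5 mature 3p arms (right) in CPM on a log axis, with 1 point per mouse (6 WT in black, 7 *Tet2/3* DKO in purple), horizontal bars at the mean and vertical lines of 1 SD; a dotted line parts the mir-200c and mir-141 cluster from the other. Every *Tet2/3* DKO point of miR-200c-3p, at most 516.5 CPM, lies below every WT point, at least 607.6 CPM, while the genotypes overlap in every hairpin.

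Hairpin counts gave no call among the members. Such a count is a read assigned to the hairpin sequence and need not come from an uncut precursor. Of the 4 member hairpins tested, 0 were called lower and 0 higher at an edgeR adjusted p under 0.05, against 27.1% lower and 32.6% higher of all hairpins. None passed both thresholds, against 8.29% of all hairpins, and none parted the genotypes without overlap, against 32.0%. At an unadjusted p under 0.05, 1 of the 4 was lower, and DESeq2 called 1 lower. That hairpin was mir-200b in both cases. The median log2 fold change of the 4 was −0.18, against 0.02 over all hairpins.

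The mir-200c hairpin ranged from 42.9 CPM over a median of 52.1 to 59.9 in WT and from 42.5 over 50.6 to 69.3 in *Tet2/3* DKO. The ranges lay over each other, with means of 51.7 ± 6.00 CPM (SD, n = 6) and 53.9 ± 10.3 (SD, n = 7) and a log2 fold change of 0.07 (SE 0.190, edgeR adjusted p = 0.768). The mir-141 hairpin ranged from 29.9 CPM over 35.4 to 59.2 in WT and from 26.2 over 42.6 to 78.0 in *Tet2/3* DKO (0.14, SE 0.265, edgeR adjusted p = 0.666). The sign of these small differences was not stable: upper-quartile scaling gave −0.17 for mir-200c and −0.10 for mir-141, with the median of all hairpins at −0.22.

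The mir-200b hairpin ranged from 34.6 CPM over 78.2 to 121 in WT and from 44.4 over 49.6 to 72.8 in *Tet2/3* DKO. All 7 *Tet2/3* DKO mice were below the WT median, and WT 1 was below all of them. Its log2 fold change was −0.51 (SE 0.230, edgeR adjusted p = 0.0652). Without WT 1 it was −0.64 and passed (adjusted p = 0.0124), and it also passed without DKO 3 (−0.59, adjusted p = 0.0444). Without WT 5, its highest WT mouse, it was −0.33 (adjusted p = 0.237). With library size scaling alone it was −0.16 (adjusted p = 0.550), and with upper-quartile scaling −0.74 (adjusted p = 0.0104). The mir-200a hairpin ranged from 38.4 CPM over 46.6 to 77.3 in WT and from 24.2 over 40.6 to 65.7 in *Tet2/3* DKO (−0.42, SE 0.260, edgeR adjusted p = 0.173). It was −0.27 without WT 3 (adjusted p = 0.430), −0.07 with library size scaling (adjusted p = 0.826) and −0.66 with upper-quartile scaling, where it passed (adjusted p = 0.0331). The mir-429 hairpin had 0 to 10 counts in WT libraries, 1 to 19 in those of *Tet2/3* DKO and was not tested.

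**Figure D2:**
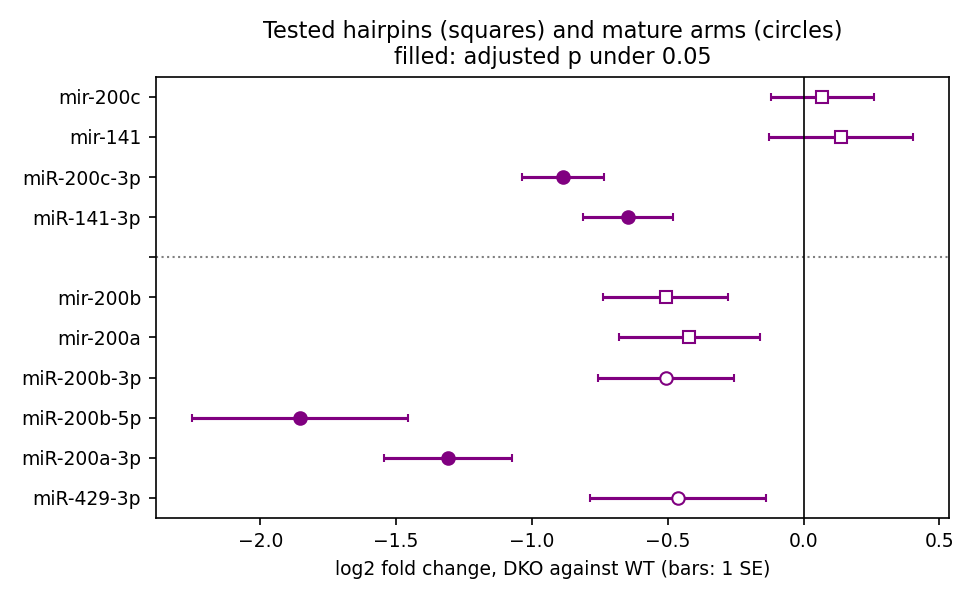
Log2 fold changes of *Tet2/3* DKO against WT (x axis, bars of 1 SE) for the 4 tested hairpins (squares) and 6 tested arms (circles), with the mir-200c and mir-141 cluster above the dotted line; filled symbols have an edgeR adjusted p under 0.05. The 4 filled symbols, from −1.85 for miR-200b-5p to −0.65 for miR-141-3p, are all mature arms, and the hairpins lie between −0.51 and 0.14.

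Summed over members, as a description with no test, the mir-200c and mir-141 cluster had 1094 ± 155 mature CPM in WT (SD, n = 6) and 623.5 ± 55.7 in *Tet2/3* DKO (SD, n = 7). The other cluster had 143.2 ± 41.2 and 77.0 ± 23.4. The difference of genotypes was −0.80 and −0.89 on the log2 scale, and whether the clusters differed from each other in this was not tested. The mir-200c and mir-141 cluster held 88.5% ± 2.62 of the family's mature counts in WT and 89.1% ± 2.82 in *Tet2/3* DKO. Of the hairpin counts it held 41.2% ± 7.45 and 49.5% ± 4.39. Its hairpin sum was 92.1 ± 6.61 CPM in WT and 99.2 ± 10.9 in *Tet2/3* DKO, and that of the other cluster was 136.8 ± 39.5 and 102.0 ± 19.0. The cluster with fewer hairpin counts in WT thus had most of the arm counts. Arms with the AAUACUG seed held 69.6% ± 5.24 of the 3p counts in WT and 68.0% ± 9.22 in *Tet2/3* DKO. The whole family held 0.0961% to 0.129% of a WT library's mature counts and 0.0685% to 0.0858% of a *Tet2/3* DKO library's.

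Ratios of counts within a library need no scaling between libraries and show whether members changed unequally. A log2 ratio was taken for 29 pairs, and genotypes were compared by an exact two-sided permutation test over all ways to choose 6 of 13 mice, which can give no p below 0.000583, with Benjamini-Hochberg adjustment over the 29. Of these, 6 passed at an adjusted p under 0.05. They were 2 of 10 ratios between 3p arms, 1 of 4 ratios of 3p to 5p arm and 3 of 5 ratios of hairpin to 3p arm, and 0 of 10 between hairpins (0 also at an unadjusted p under 0.05).

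Within the mir-200b, mir-200a and mir-429 cluster the 3p arms changed unequally. The log2 ratio of miR-200b-3p to miR-200a-3p ran from −1.09 to −0.21 among WT mice and from −0.19 to 0.50 among *Tet2/3* DKO mice, with no overlap. Its mean moved from −0.66 ± 0.324 (SD, n = 6) to 0.18 ± 0.201 (SD, n = 7), higher in 7 of 7 *Tet2/3* DKO mice than the WT mean (exact permutation p = 0.000583, adjusted p = 0.00422). The ratio of miR-200a-3p to miR-429-3p moved from 1.86 to 1.01, lower than the WT mean in 7 of 7 *Tet2/3* DKO mice (exact permutation p = 0.00350, adjusted p = 0.0203). That call was lost when WT 2 or WT 5 (adjusted p = 0.0513 for each) or WT 6 (0.0659) was left out. The ratio of miR-200b-3p to miR-429-3p, which share a seed, was 1.21 and 1.19 (exact permutation p = 0.946). Both ratios that passed contain miR-200a-3p.

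Between clusters, arms that share a seed did not part the genotypes past the threshold. The ratio of miR-200c-3p to miR-200b-3p was 4.24 ± 0.370 in WT and 3.85 ± 0.357 in *Tet2/3* DKO (exact permutation p = 0.0781, adjusted p = 0.197), and that of miR-141-3p to miR-200a-3p was 2.19 ± 0.404 and 2.84 ± 0.690 (exact permutation p = 0.0606, adjusted p = 0.195). The ratio of the cluster partners miR-200c-3p to miR-141-3p was 1.39 ± 0.414 and 1.18 ± 0.649 (exact permutation p = 0.529, adjusted p = 0.731). These p-values do not show that the arms changed alike.

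The ratio of hairpin to 3p arm counts was higher in *Tet2/3* DKO for the mir-200c and mir-141 cluster. For mir-200c the log2 ratio ran from −5.45 to −4.70 among WT mice and from −4.49 to −3.93 among *Tet2/3* DKO mice. The mean moved from −5.15 ± 0.250 to −4.18 ± 0.187, or from 0.0283 to 0.0551 hairpin counts per arm count (7 of 7 mice above the WT mean, exact permutation p = 0.000583, adjusted p = 0.00422). For mir-141 it ran from −4.51 to −3.68 and from −3.54 to −2.96, or 0.0568 and 0.101 hairpin counts per arm count (a difference of 0.84, 7 of 7 mice, exact permutation p = 0.000583, adjusted p = 0.00422). The genotypes did not overlap in either.

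In the other cluster the same ratio was less uniform. For mir-200a it moved from −1.52 ± 0.419 to −0.58 ± 0.678, above the WT mean in 7 of 7 mice (exact permutation p = 0.00874, adjusted p = 0.0422). This call was lost when WT 2, 3, 4, 5 or 6 or DKO 1, 2, 3, 4 or 7 was left out, with adjusted p from 0.0628 to 0.126. For mir-200b it was −0.41 ± 0.390 in WT and −0.31 ± 0.507 in *Tet2/3* DKO (exact permutation p = 0.680), and for mir-429 −3.27 ± 0.760 and −2.54 ± 0.528 (exact permutation p = 0.0600, adjusted p = 0.195).

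Hairpin libraries as a whole held 43.9% as many counts as mature libraries in WT and 42.1% in *Tet2/3* DKO (exact permutation p = 0.169 for the log2 ratio). Over 249 tested hairpins matched by name to a tested arm, the median change of the hairpin to arm ratio was 0.00 on the log2 scale. Where an arm carries a hairpin's copy number, only that arm was considered, even if a shared arm had more counts. Thus let-7c-2 (−2.83) was set against let-7c-2-3p and not let-7c-5p, and hairpins such as let-7f-2 and mir-103-2 were left out. Family hairpins have no copy number. The shares and percentiles here were not recomputed with shared arms. At an adjusted p under 0.05 over those 249 pairs, 11.2% were higher in *Tet2/3* DKO and 7.63% lower. Of the 4 family hairpins among them, 3 were called higher and 0 lower, with adjusted p = 0.00967 for mir-200c and mir-141 and 0.0473 for mir-200a by the same exact permutation test. The change of mir-200c lay at the 98.4th percentile of the 249, mir-200a at the 97.2nd, mir-141 at the 95.2nd and mir-200b at the 60.6th.

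The 2 arms of mir-200b also changed unequally. The log2 ratio of miR-200b-3p to miR-200b-5p ran from 0.61 to 2.27 among WT mice and from 2.64 to 4.03 among *Tet2/3* DKO mice, with no overlap. The mean moved from 1.86 ± 0.629 (SD, n = 6) to 3.12 ± 0.492 (SD, n = 7), or from 3.63 to 8.67 counts of the 3p arm per count of the 5p arm (exact permutation p = 0.000583, adjusted p = 0.00422). Over 92 pairs of tested arms matched by name, 8.70% were called higher and 8.70% lower in *Tet2/3* DKO. This pair was among the higher (exact permutation adjusted p = 0.0179, 96.7th percentile), and was in that set through the WT counts of miR-200b-5p. The ratio of miR-200a-3p to miR-200a-5p had a mean of 5.00 in WT and 3.53 in *Tet2/3* DKO, and did not pass after adjustment (exact permutation p = 0.0216, adjusted p = 0.0893). It rests on at most 19 counts of the 5p arm per library.

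**Figure D3:**
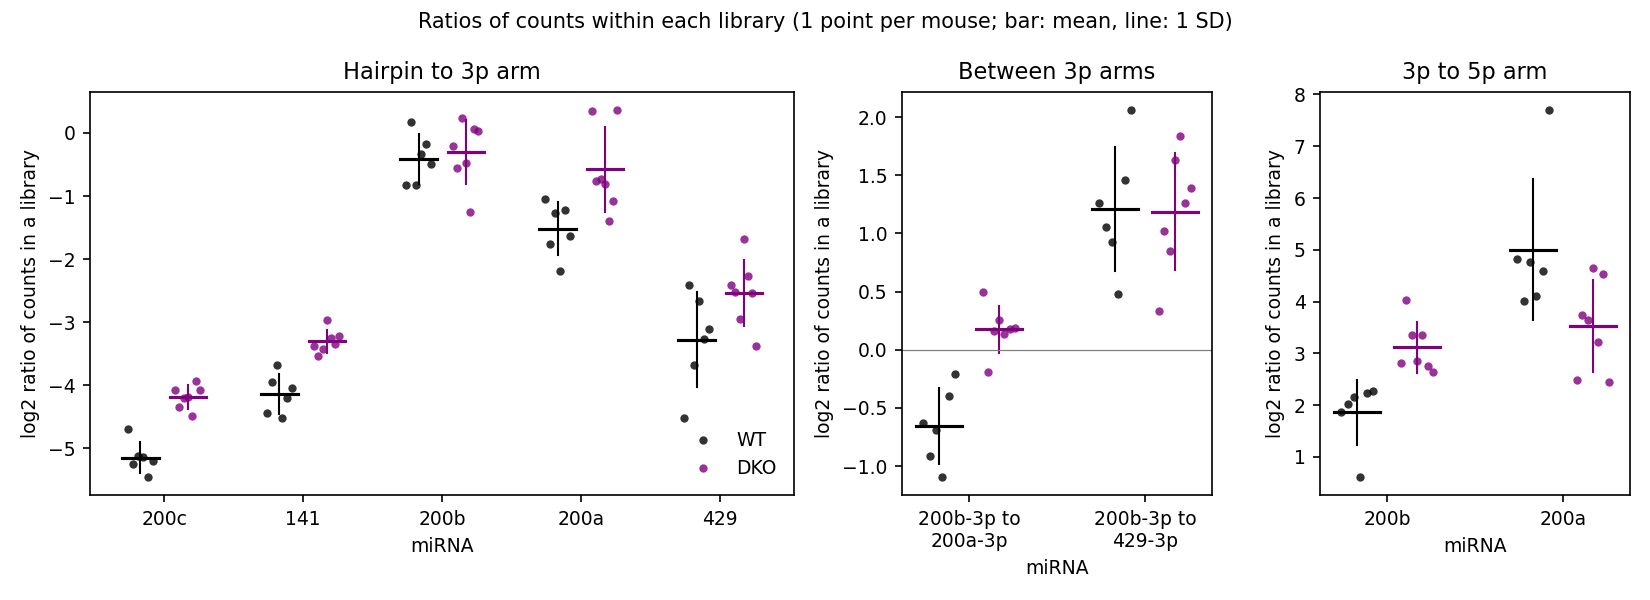
Log2 ratios of counts within each library (y axes) of hairpin to 3p arm for the 5 miRNAs, of miR-200b-3p to 2 other 3p arms of its cluster, and of 3p to 5p arm for mir-200b and mir-200a, with 1 point per mouse (WT black, *Tet2/3* DKO purple), bars at the mean and lines of 1 SD. The genotypes part without overlap in mir-200c and mir-141 (hairpin to arm), in miR-200b-3p to miR-200a-3p and in the arms of mir-200b.

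Within a genotype, hairpin levels of mir-200c and mir-141 correlated negatively across mice. Only the WT relation passed after adjustment. Over the 6 WT mice Pearson's r, on log2 CPM, reached −0.963 (exact permutation p = 0.00139, adjusted p = 0.0167 over 12 relations) and Spearman's rho −1.0 (p = 0.00278, adjusted p = 0.0333), and r was −0.958 without the 2 mice farthest from the median. Over the 7 *Tet2/3* DKO mice r was −0.817 (exact permutation p = 0.0107, adjusted p = 0.0643) and rho −0.750 (p = 0.0663, adjusted p = 0.398), and r was −0.526 without the 2 farthest mice. WT 3 and DKO 7 had the lowest mir-200c and the highest mir-141 hairpin level of their genotypes, and WT 1 and DKO 6 the reverse. These hairpin counts were few. WT libraries held 26 to 48 counts of mir-200c and 13 to 58 of mir-141, and *Tet2/3* DKO libraries 36 to 140 and 53 to 90. Whether sampling noise at such counts sets the order of the mice was not tested. The mature arms of this pair had r = −0.304 in WT (exact permutation p = 0.546, adjusted p = 0.660; rho −0.257, p = 0.658). In *Tet2/3* DKO r was −0.740 (exact permutation p = 0.0409, adjusted p = 0.124; rho −0.679, p = 0.110), which fell to −0.132 without the 2 farthest mice and so rests on them. Of the 12 relations computed, 4 passed at an unadjusted p under 0.05 and 1 after adjustment.

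**Figure D4:**
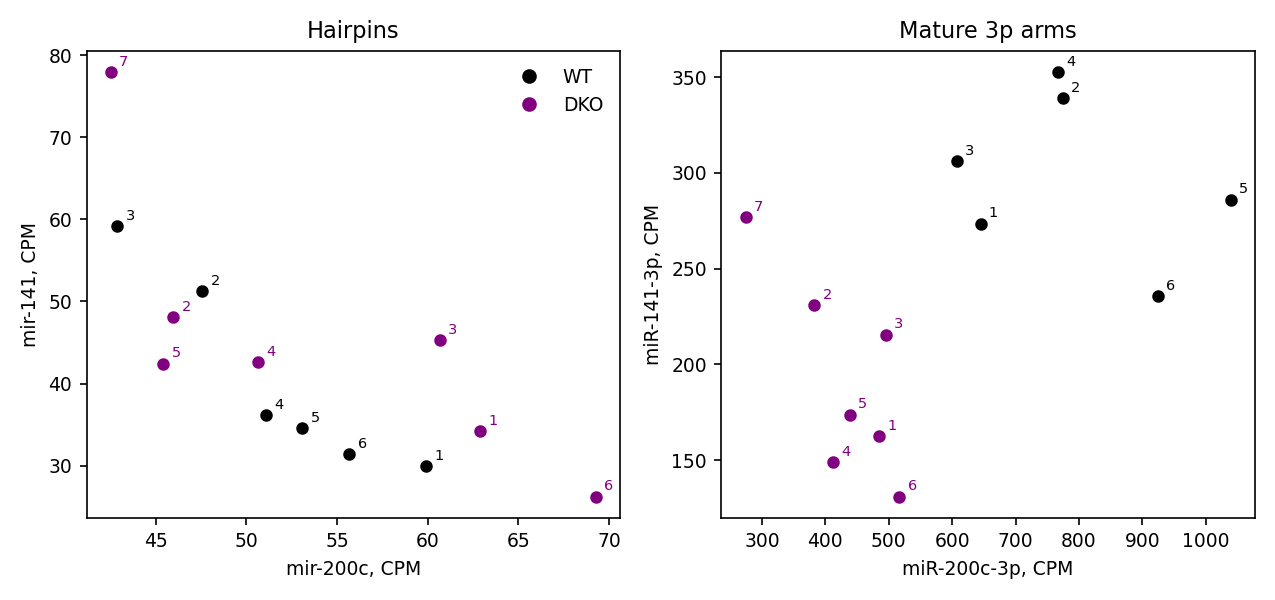
Level of mir-141 against mir-200c in CPM for the hairpins (left) and the 3p arms (right), with 1 numbered point per mouse (6 WT in black, 7 *Tet2/3* DKO in purple). Hairpin points of WT descend from mouse 3 (42.9 and 59.2 CPM) to mouse 1 (59.9 and 29.9 CPM), and in the right panel the *Tet2/3* DKO points lie to the left of every WT point.

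The relation of miR-200a-3p to miR-200b-3p had r = 0.764 in WT (exact permutation p = 0.0736, adjusted p = 0.177; rho 0.600, p = 0.242) and 0.903 in *Tet2/3* DKO (exact permutation p = 0.0415, adjusted p = 0.124; rho 0.393, p = 0.396). The latter turned to −0.533 without the 2 farthest mice and so rests on them. As a description over the 13 mice, after genotype means were subtracted, the mature miRNAs whose pattern was most like the mir-200c and mir-141 arm total among 383 candidates were miR-28a-3p (r = 0.824), miR-361-5p (0.790), miR-30d-5p (0.754), miR-501-5p (0.744) and miR-20b-5p (0.714). For the other cluster they were miR-20b-3p (0.871), miR-103-3p (0.815), miR-532-3p (0.777), miR-3084-5p (0.760) and miR-107-3p (0.716). The median r over all candidates was 0.05 and 0.03. Mice share library depth and composition in these values.

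Other miRNAs linked to epithelium or to the epithelial-mesenchymal transition were called in both directions among hairpins. Of 9 such hairpins listed, 5 were tested, with 1 lower and 1 higher, where 27.1% and 32.6% of all hairpins were so called. The lower one was mir-192 (−0.55, edgeR adjusted p = 0.0247), an epithelial miRNA. Its arm miR-192-5p, with more counts, was not called (−0.24, edgeR adjusted p = 0.309). The higher hairpin was mir-34a, a p53 target, at 151.0 ± 35.2 CPM in WT and 641.3 ± 348.6 in *Tet2/3* DKO (2.10, adjusted p = 0.000133). Of 11 mature miRNAs listed, 4 were tested, with 0 lower and 1 higher, against 27.4% and 28.2% of all mature miRNAs. On so few members these counts cannot be told from those shares. The higher one was miR-34a-5p, at 55.5 ± 10.8 CPM in WT (SD, n = 6) and 298.6 ± 145 in *Tet2/3* DKO (SD, n = 7; log2 fold change 2.43, edgeR adjusted p = 2.43e-06).

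Markers of T cells and of other cell types were also compared between genotypes. Among T cell markers, 3 of 6 mature miRNAs tested were called lower in *Tet2/3* DKO and 0 higher, against 27.4% and 28.2% of all mature miRNAs. The 6 summed to 172656 to 229989 CPM in WT and 148865 to 207367 in *Tet2/3* DKO. The lower ones were miR-150-5p, abundant in mature lymphocytes, with a log2 fold change of −1.18 (edgeR adjusted p = 3.58e-05), miR-150-3p (−0.76) and the haematopoietic miR-142a-3p (−0.41). Of the T cell hairpins, 2 of 5 tested were lower and 3 higher, against 27.1% and 32.6% of all hairpins. The sums of the 5 were 176248 to 207755 CPM in WT and 165303 to 225614 in *Tet2/3* DKO. The lower hairpins were mir-142a and mir-150, and the higher mir-155, mir-181a-1 and mir-181a-2. The last 2 had nearly the same level (36581 and 36011 CPM in WT). Neither miR-155-5p (0.46, edgeR adjusted p = 0.129) nor miR-181a-5p (−0.03, adjusted p = 0.832) was called. Of the epithelial markers, miR-203-3p had 235.8 ± 48.8 CPM in WT and 294.4 ± 46.9 in *Tet2/3* DKO (0.32, edgeR adjusted p = 0.0753). Its hairpin mir-203 went the other way, with 513.1 ± 90.3 and 454.0 ± 50.1 CPM (−0.17, edgeR adjusted p = 0.252). The other epithelial arms had too few counts for that test. The level of miR-375-3p was 6.23 ± 5.00 CPM in WT and 3.04 ± 1.95 in *Tet2/3* DKO, and 0 in 1 of 13 libraries. That of miR-203-5p was 1.57 ± 1.99 and 0.856 ± 0.448 CPM, and 0 in 3 libraries, while miR-205-5p was at 0 in 11 and miR-205-3p in 12. The 5 epithelial mature miRNAs summed to 196.3 to 312.4 CPM in WT and 225.7 to 354.7 in *Tet2/3* DKO. Markers of 4 other cell types were lower in *Tet2/3* DKO, in lists with at most 4 mature members tested. Calls in such short lists were not tested against the 27.4% called lower of all mature miRNAs. The mature stromal markers (4 of 4 tested lower, 6 listed) summed to 67.6 to 120.5 CPM in WT and 12.02 to 22.8 in *Tet2/3* DKO. The mature red cell markers (1 of 1 tested lower, 3 listed) summed to 16.1 to 38.1 and 0 to 3.87 CPM, the myeloid ones (1 of 1 tested lower, 2 listed) to 2.31 to 92.5 and 0.633 to 6.57, and the hepatocyte ones (1 of 1 tested lower, 2 listed) to 46.9 to 883.3 and 3.16 to 49.3. The endothelial mature markers (0 of 2 lower, 1 higher, against 27.4% and 28.2%) summed to 126.6 to 236.6 and 196.3 to 335.0 CPM. The part of such cells in the lower miR-200 arm counts was not tested.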

How the data were processed

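Small RNA-seq libraries of sorted thymic iNKT cells from 6 WT and 7 *Tet2/3* DKO mice were analysed. The authors processed the reads with nf-core/smrnaseq at default parameters and deposited raw counts per hairpin and per mature miRNA, 1 column per mouse, without normalization. The genome build in the submitters' processing notes is mm10. The aligner, the miRNA database release and the counting of reads that match several sequences are not given in the sources used here. In that pipeline's usual workflow, reads are first aligned to mature sequences and those left over to hairpins, so a hairpin count need not be a precursor molecule; which reads entered each table was not tested. Each column names the genotype and number of its mouse, and 0 columns were left unmatched.

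From the deposited counts, edgeR 4.0.16 in R 4.3.3 was run on each whole table (filterByExpr with minimum count 10 and minimum total 15, TMM, robust quasi-likelihood fit, genotype only, all 13 mice). CPM used TMM-scaled libraries. Ratios used a pseudocount of 0.5, features with at least 20 counts in all, and exact permutation tests (numpy 2.4.6, scipy 1.17.1). The tests over 249 hairpin to arm pairs and 92 arm pairs were chosen after the family's ratios were seen. Arms were matched by name, and where an arm with the copy number of the hairpin was listed, only such arms were considered. The most abundant tested arm among those matched was used. Hairpins with no tested arm among those matched were left out, and rows with the same counts were taken once. Correlations used log2 CPM with a prior count of 2. Scripts were tested on simulated data. Named miRNAs were every member, the 5 most alike miRNAs per cluster, and lists of epithelial and cell type markers. The members and lists were chosen with earlier results of these data known. No pair of libraries of a genotype agreed within sampling noise (chi-square per degree of freedom at least 17.6). Alternatives were RLE, upper-quartile and library size scaling, no filter beyond 1 count, DESeq2 1.42.0, a replicate block, another pseudocount, and leaving out each mouse. Sequences come from RefSeq (GRCm38.p6) and positions from GENCODE for GRCm38, since the tables have no coordinates.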

Additional observations from a re-analysis of the deposited data

Results flagged for a closer look

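In 6 of 94 groups of log2 ratios or levels, the highest or lowest mouse stood apart from the others by Dixon's criterion, where chance gives about 1 in 20 groups, or 4.70. Among the 3p arms, the ratio of miR-200c-3p to miR-200b-3p was lowest in DKO 5 at 3.11, with the next mouse at 3.83. Among the hairpins, mir-200c to mir-200b was highest in WT 1 at 0.77 (next −0.53), mir-141 to mir-200a was lowest in DKO 1 at −0.93 (next 0.06), and mir-200a to mir-429 was highest in DKO 7 at 4.92 (next 2.97). The ratio of miR-200b-3p to miR-200b-5p was lowest in WT 4 at 0.61 (next 1.87), on the side away from the *Tet2/3* DKO values. The ratio of miR-200a-3p to miR-200a-5p was highest in WT 6 at 7.69 (next 4.82), where the 5p arm had 0 counts.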

How the results depend on the processing

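The calls of miR-200c-3p, miR-200a-3p and miR-200b-5p held under every alternative run. That of miR-141-3p was lost under library size scaling alone (−0.37), and miR-200b-3p gained a call with upper-quartile scaling (−0.69). The number of hairpin members called lower, 0 in the results, was 1 with RLE scaling, with DESeq2 and without the shallowest library of each genotype (chosen after seeing the data), 2 with upper-quartile scaling, and 0 to 1 when each mouse was left out. The mir-200c hairpin turned to −0.037 with RLE and −0.17 with upper-quartile scaling. The mir-141 hairpin turned to −0.10 with upper-quartile scaling and −0.089 without the shallowest libraries, and ranged from −0.035 to 0.33 when each mouse was left out; the lower value, also for the mice of the block, was without DKO 7. The mir-200c and mir-141 hairpin total differed by 0.44 with library size scaling and −0.14 with upper-quartile scaling, and the mature total by −0.56 with library size scaling. The library scaling alone moved the median of all hairpins from 0.02 to 0.36. When each mouse was left out, the ratios that changed sign ranged from −0.27 to 0.11 (mir-200c to mir-141 hairpin), −0.17 to 0.12 (mir-200b to mir-200a hairpin), −0.16 to 0.15 (miR-200b-3p to miR-429-3p) and −0.44 to 0.0091 (miR-141-3p to miR-429-3p). The correlation of miR-200a-3p with miR-200b-3p in *Tet2/3* DKO turned to −0.533 without the 2 farthest mice. For the other changes of direction or call the cause was not tested.

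With the replicate number as a block (6 pairs, 12 mice), no mature call changed: miR-200c-3p was at −0.87, miR-141-3p at −0.85, miR-200a-3p at −1.30 and miR-200b-5p at −1.82. The mir-141 hairpin was at −0.0095 and the ratio of mir-200c to mir-141 hairpin at 0.11 with the block. The count of ratios that passed was 0 of 29 with it, where the smallest p that 6 pairs allow is 0.0313. Same-numbered mice correlated from −0.05 to 0.34 in hairpins and from 0.01 to 0.34 in mature miRNAs. Of the 6 pairs, 2 in hairpins and 3 in mature miRNAs were above 0.1, and WT 5 and WT 6 correlated best with their own number in both tables while the other 4 did not. The labels give no shared origin, and not every pair was above 0.1, so the numbers were not treated as a pairing.

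Counts of at most 140 per library for each hairpin limit what can be seen there, and 5p arms other than miR-200b-5p did not pass the filter on low counts. They were fitted only with no filter beyond 1 count and with DESeq2, where none passed (DESeq2 adjusted p from 0.435 to 0.984).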
